A study of Arabidopsis thaliana with 4 samples.

Results

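The Nudix hydrolases described here are 8 Arabidopsis genes, NUDT2 (AT5G47650), NUDT5 (AT2G04430), NUDT6 (AT2G04450), NUDT7 (AT4G12720), NUDT8 (AT5G47240), NUDT10 (AT4G25434), NUDT20 (AT5G19460) and NUDT24 (AT5G19470), out of 22690 genes tested on the same arrays. They were picked by locus, as every gene spot whose identifier is one of these 8 loci, and they were put together after an earlier look at the exposed over control ratios of these same arrays. Their ratios below are therefore a description and carry no test. They are read by 11 probes. NUDT7, NUDT8 and NUDT20 have 2 probes each, and the other 5 genes have 1.

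The plants compared were wild type Arabidopsis thaliana of ecotype Col-0 in both groups, grown on upright agar plates. Exposed plants shared the air space of the plate with Pseudomonas syringae DC3000, a leaf pathogen kept in the lower part, and control plants had plates without bacteria. Growth lasted 8 days and exposure 12 hours by the series design, whereas a label of each sample reads 12 days, and the sources used here do not settle which holds. Each of the 4 samples is an array with exposed RNA in red (Cy5) and control RNA in green (Cy3). As no array had the dyes swapped, a dye preference of a probe and an effect of exposure cannot be told apart. The labels do not state that different arrays hold RNA of different plants, so p-values measure only a spread between arrays that may be technical.

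Nudix hydrolases cleave nucleoside diphosphates linked to some other moiety, among them ADP-ribose, NADH, coenzyme A and damaged nucleotides. ADP-ribose arises when NAD is used up by enzymes such as poly(ADP-ribose) polymerases, and several plant Nudix enzymes return it to AMP. In Arabidopsis the best known member in immunity is NUDT7, whose loss gives small plants with defence switched on through the regulator EDS1.

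Array 4 stood apart from the others. Its median gene spot had 1286 scanner units in the exposed and 575.5 in the control channel, where arrays 1 to 3 had 336 to 373 and 292 to 362.5 units. Its log2 ratios correlated with those of the other arrays with r = 0.22 to 0.288 across genes, which are no replicates, against r = 0.648 to 0.779 among arrays 1 to 3. Arrays 1 and 2 shared one slide and arrays 3 and 4 the other. On 50 probes spotted 5 times, the median SD between arrays 1 to 3 was 0.0469 on the log2 scale, and the noise between spots of 1 array would alone give 0.0506. Whether these arrays are technical repeats was not tested. Each member is therefore given on every array, and with and without array 4.

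All 11 probes of the 8 genes were well above background in the exposed and the control channel on all 4 arrays, and none of their spots was an outlier. Over all gene spots, 77.74% to 78.85% (exposed) and 75.07% to 75.36% (control) were above background on arrays 1 to 3. On array 4 the shares were 99.6% and 97.24%, so passing there says little. Outliers were rare everywhere, at 13 to 142 of 43803 gene spots per array. In exposed plants, NUDT24 was lower by 2.23-fold and NUDT20, its neighbour in the genome, by 1.50-fold. NUDT6 was higher by 1.48-fold and NUDT7 by 1.27-fold, and both encode enzymes that split NADH or ADP-ribose. NUDT5 was at 1.12-fold and NUDT2 at 1.01-fold of control, and NUDT10 and NUDT8 were lower by 1.19-fold and 1.18-fold, with array 4 the lowest array of both. In the fit of all genes (limma, adjusted p below 0.05) 4 of the 8 were called, NUDT6 and NUDT7 higher and NUDT20 and NUDT24 lower, where 3.40% of all tested genes were called, 1.58% higher and 1.82% lower. The ratios helped choose the members, so this count is read no further. NUDT7 was not among the called genes with median centring, with the scanner log ratio or with no filter on dim probes, where the count was 3. Those fits called 0.952%, 4.89% and 1.01% of all genes. The count was 0 without array 1, without array 2 or without array 3, as was the count over all genes. In those fits 4 or 5 of the 8 had an unadjusted limma p below 0.05, beside 3494 to 3873 of the 22690 genes. Without array 4 the member count was 4, and 31.1% of all genes were called.

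**Figure D1:**
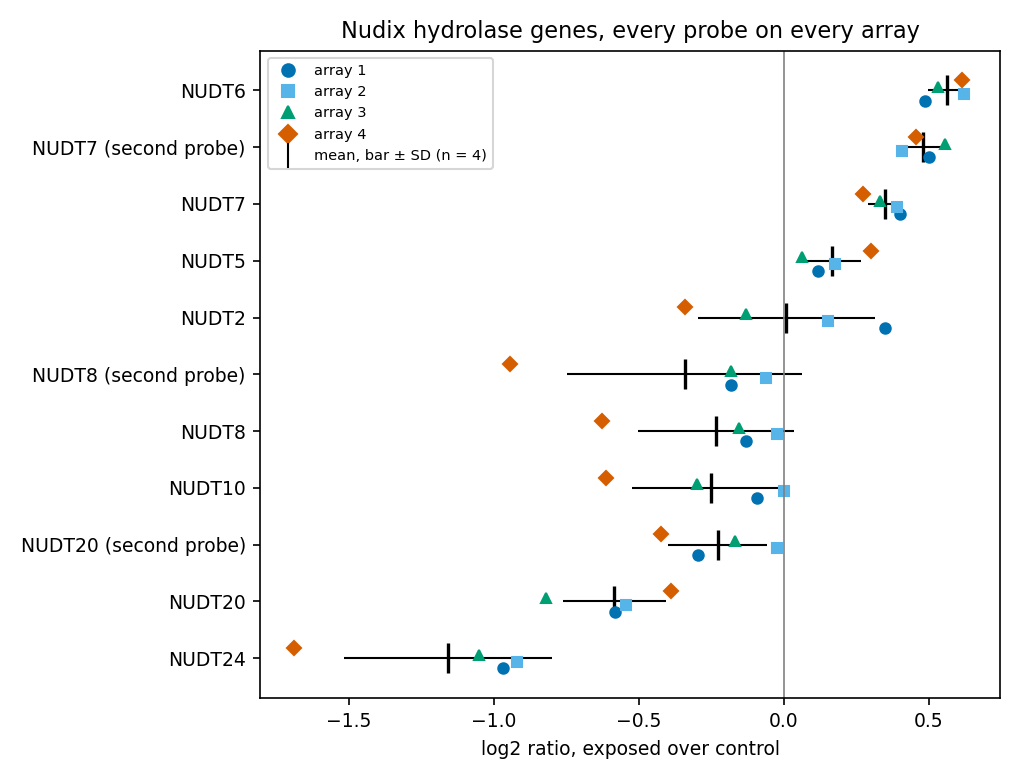
Log2 ratio of exposed over control plants (x axis) for all 11 probes of the 8 Nudix genes, with 1 symbol per array, a black tick at the mean and a bar of ± 1 SD (n = 4 arrays). NUDT24 lies between -1.69 and -0.92 and NUDT6 between 0.49 and 0.62. Array 4 (orange diamonds) is the lowest point of NUDT24, NUDT10, NUDT2, both NUDT8 probes, the first NUDT7 probe and the second NUDT20 probe.

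NUDT6 and NUDT7 belong to the enzymes that act on NADH and ADP-ribose. NUDT6 hydrolyses NADH and has been tied to salicylic acid responses. Its loess-normalized signal, in scanner units on arrays 1 to 4, was 376, 356, 368 and 1013 in exposed plants, against 268, 232, 255 and 662 in control plants. The exposed signal was above the control signal of the same array on all 4 arrays. Its log2 ratios were 0.49, 0.62, 0.53 and 0.61, a mean of 0.56 ± 0.065 (SD, n = 4), and array 4 lay inside the range of the others. Without array 4 the mean was 0.55 ± 0.068 (SD, n = 3). The 2 slides gave means of 0.55 and 0.57. Only 118 of the 22690 genes had a higher mean.

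NUDT7 removes ADP-ribose and NADH and is a negative regulator of EDS1-dependent defence. The brighter of its 2 probes read 4879, 4065, 4328 and 4829 units in exposed plants, against 3701, 3106, 3439 and 3999 units in control plants. The lowest exposed array, at 4065 units, lay just above the highest control array, at 3999 units. How many of all tested genes show such a separation was not counted. The log2 ratios were 0.40, 0.39, 0.33 and 0.27, with a mean of 0.35 ± 0.058 (SD, n = 4), and 0.37 ± 0.036 (SD, n = 3) without array 4. NUDT7 thus had the smallest SD of the 8 genes, although its mean was exceeded by 808 of all tested genes.

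The second NUDT7 probe, which the array design assigns to transcript version 2 where the first is assigned to version 1, gave 0.50, 0.41, 0.56 and 0.46, a mean of 0.48 ± 0.063 (SD, n = 4). It lay above the first probe on all 4 arrays, by 0.13 ± 0.091 (SD of the difference, n = 4) on the log2 scale. Probe sequences were not used here, so whether the 2 probes separate transcript versions was not tested.

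NUDT2 encodes an ADP-ribose pyrophosphatase that raises tolerance of oxidative stress when overproduced. It read 609, 486, 401 and 746 units in exposed plants, against 478, 437, 439 and 945 units in control plants. The log2 ratios were 0.35, 0.15, -0.13 and -0.34, so that the gene was higher in exposed plants on the 2 arrays of one slide and lower on the 2 of the other. The slide means were 0.25 and -0.24, and the mean over all arrays was 0.0075 ± 0.30 (SD, n = 4). Without array 4 it was 0.12 ± 0.24 (SD, n = 3), and with array weights, an alternative chosen after the data were seen, it was 0.19 and was called. That fit called 35.4% of all tested genes and gave arrays 1 to 4 weights of 2.83, 2.38, 0.922 and 0.161. It thus rested mostly on the 2 arrays where NUDT2 was higher in exposed plants. The direction of NUDT2 was not settled.

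NUDT10 encodes another enzyme that hydrolyses ADP-ribose in vitro. Its signal was 236, 215, 215 and 335 units in exposed plants, against 252, 215, 265 and 513 units in control plants. The log2 ratio was -0.094 on array 1, -7.9e-05 on array 2, -0.30 on array 3 and -0.61 on array 4. The mean of -0.25 ± 0.27 (SD, n = 4) became -0.13 ± 0.15 (SD, n = 3) without array 4, and no more than its own spread separated it from 0.

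NUDT8 has been reported from mutant studies to contribute to defence. Its brighter probe read 1417, 1176.5, 1162 and 1091 units in exposed plants, against 1552, 1197, 1293 and 1684 units in control plants. The log2 ratios were -0.13, -0.025, -0.15 and -0.63, with a mean of -0.23 ± 0.27 (SD, n = 4) and of -0.10 ± 0.069 (SD, n = 3) without array 4. The second probe had the same sign on all 4 arrays, at -0.18, -0.061, -0.18 and -0.95, and was below the first on each of them. Both probes therefore placed array 4 far below the other arrays.

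NUDT5 lies close to NUDT6 on chromosome 2, with the locus AT2G04440 between them in the gene table. It read 535, 495, 441 and 1389 units in exposed plants, against 492, 438, 422 and 1128 units in control plants. The log2 ratios were 0.12, 0.18, 0.063 and 0.30, all above 0 and all below those of NUDT6 on the same array. The mean was 0.16 ± 0.10 (SD, n = 4), or 0.12 ± 0.056 (SD, n = 3) without array 4. AT2G04440, LCR82 on the far side of NUDT5 and the pseudogene AT2G04460 beyond NUDT6 gave no tested probe, the first 2 because their probes did not pass the filter on dim signal and the last because no probe carries its locus.

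**Figure D2:**
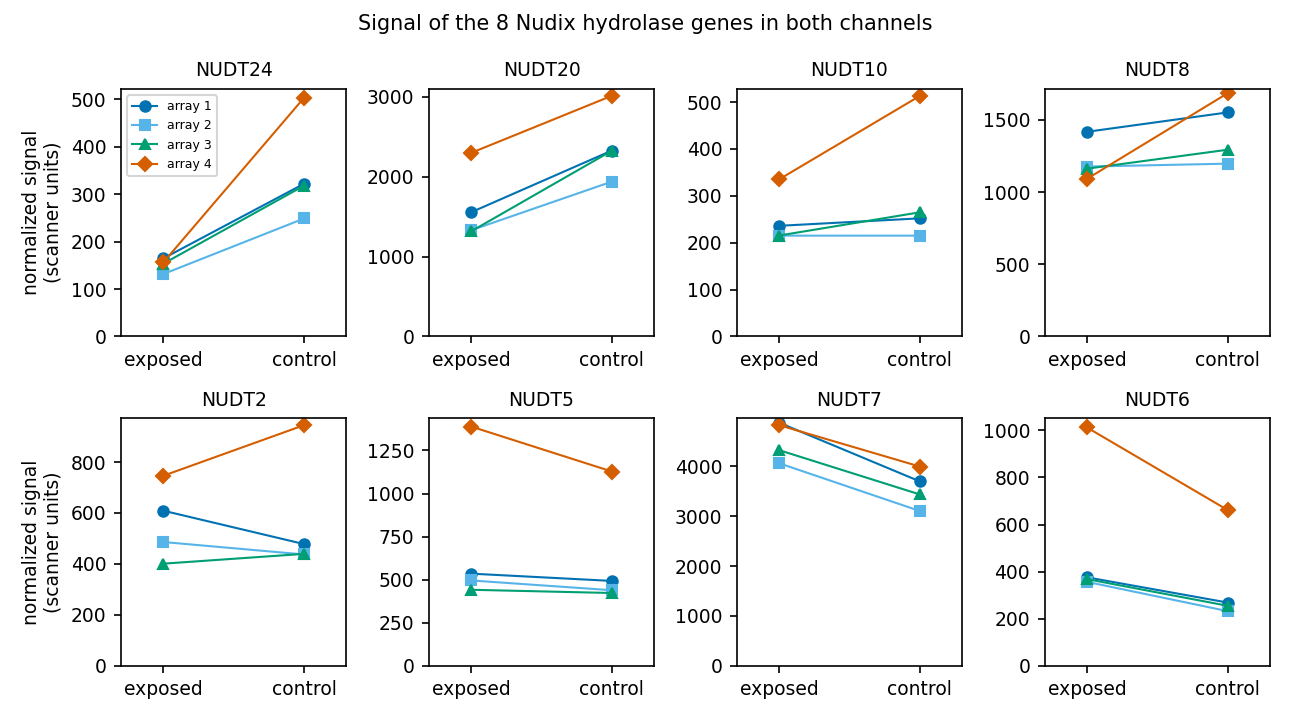
Loess-normalized signal in scanner units (linear y axes from 0, scaled per gene) of the 8 genes in exposed plants (left of each panel) and control plants (right), with 1 line per array. The lines of NUDT24 and NUDT20 climb towards the control side and those of NUDT6 and NUDT7 towards the exposed side on all 4 arrays, while those of NUDT2 run both ways.

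NUDT20 and NUDT24 are adjacent genes on chromosome 5. NUDT20 belongs to a group of Nudix enzymes that act on damaged forms of thiamine pyrophosphate, a coenzyme of sugar metabolism. NUDT24 read 165, 132, 153 and 156 units in exposed plants, against 322, 249, 318 and 503 units in control plants. Every exposed value lay below every control value, and how many of all tested genes do so was not counted. The log2 ratios were -0.97, -0.92, -1.05 and -1.69, a mean of -1.16 ± 0.36 (SD, n = 4).

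Arrays 1 to 3 alone gave -0.98 ± 0.067 (SD, n = 3) for NUDT24, so the SD was larger with array 4 than without it. The gap between array 4 and the next array was 0.828 of the whole range, just under the 0.829 at which Dixon's rule marks an outlier among 4 values. NUDT24 held rank 7 from the lowest among the 22690 genes. It is also a dim probe in exposed plants, with raw readings of 161.5, 137.5, 147.5 and 293.5 units before background correction. The size of the difference varied with the processing, with a mean of -1.44 with plain background subtraction and -1.09 with median centring. The scanner software's log ratio, turned to log2, was -1.53, -1.47, -1.40 and -2.30, a mean of -1.68.

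NUDT20 was measured by a bright probe at 1556, 1331, 1317 and 2300.0 units in exposed plants, against 2329, 1939, 2327 and 3015 units in control plants. On each array the exposed signal was the lower. Its log2 ratios were -0.58, -0.54, -0.82 and -0.39, with a mean of -0.58 ± 0.18 (SD, n = 4), and array 4 was here the weakest rather than the strongest. Without array 4 the mean was -0.65 ± 0.15 (SD, n = 3). Only 60 genes had a lower mean.

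A second, dimmer probe of NUDT20 gave -0.30, -0.025, -0.17 and -0.42, with array 4 the lowest. Its mean was -0.23 ± 0.17 (SD, n = 4). Both probes were below 0 on all 4 arrays, but the size differed by 0.36 ± 0.30 (SD of the difference, n = 4), and the mean of both probes was -0.41. The fold of NUDT20 is therefore less certain than its direction. NUDT24 was below NUDT20 on all 4 arrays, by 0.57 ± 0.49 (SD of the difference, n = 4) on the log2 scale. As NUDT20 and NUDT24, like NUDT5 and NUDT6, may share sequence, reads of one transcript by the other's probe were not tested. The gene before NUDT20, CDPK19, a calcium-dependent protein kinase, was at -0.15 ± 0.12 (SD, n = 4) and was not called (limma adjusted p = 0.233), and AT5G19473 after NUDT24 did not pass the filter.

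Ordered by their means, the 8 genes ran from NUDT24 through NUDT20, NUDT10, NUDT8, NUDT2, NUDT5 and NUDT7 to NUDT6. The array values of neighbours in this order overlapped except between NUDT24 and NUDT20 at the low end and between NUDT7 and NUDT6 at the high end. NUDT10 and NUDT8 differed by 0.018 ± 0.085 (SD of the difference, n = 4), which is less than their spread. Of the 8, 4 were above 0 and 4 below, with a median of -0.11, against -0.0046 over all tested genes. Without array 4 the member median was 0.0080. Apart from NUDT2, all had the same sign on all 4 arrays, as 37.9% of all tested genes had. In NUDT10 this rests on -7.9e-05 on array 2, and by the scanner log ratio NUDT8 was at 0.0023, 0.055 and 0.088 on arrays 1 to 3 and below 0 on array 4 alone, at -0.72. The median log2 ratio of the members was 0.012, 0.076, -0.14 and -0.37 on arrays 1 to 4.

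**Figure D3:**
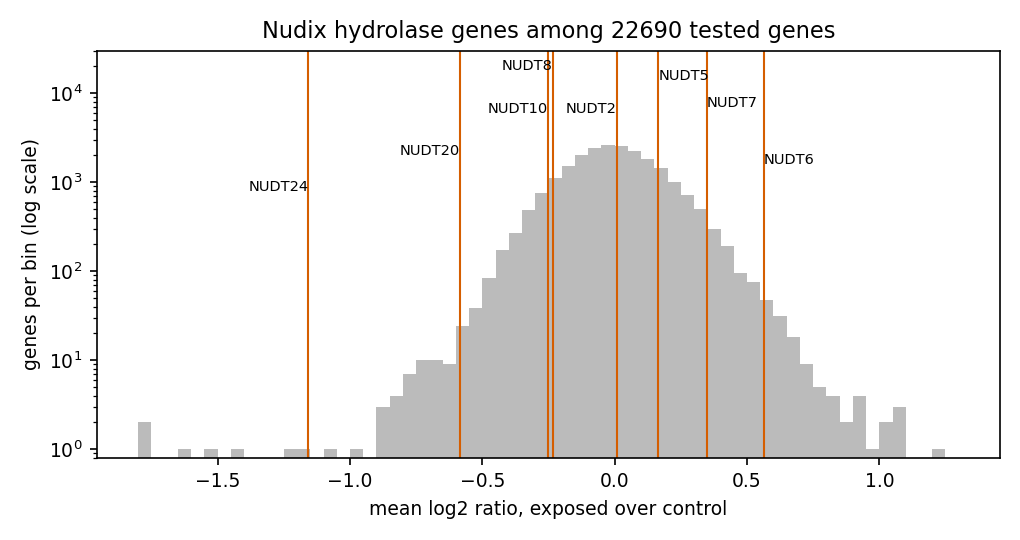
Mean log2 ratio of exposed over control plants (x axis) for the 22690 tested genes, counted in bins (log y axis), with an orange line at the mean of each Nudix gene. NUDT24 at -1.16 lies in the sparse low tail and NUDT20 at -0.58 and NUDT6 at 0.56 near the edges of the main body, while NUDT2 at 0.0075 lies in its middle.

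The genes whose 4 array values lay nearest to those of NUDT24, by Euclidean distance on the log2 scale, were the geranyllinalool synthase gene TPS04 (0.65), the lipid transfer protein gene LTP4 (0.72) and the salicylic acid marker PR1 (0.77). The nearest to NUDT6 were AT1G13930 (0.091), AT5G08760 (0.12) and AT1G57630 (0.13), none of which has a symbol in the gene table. Over 4 arrays such likeness is a description only.

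No other Nudix gene was called in either direction. All 19 passed the filter, 10 with a mean above 0 and 9 below, over a range from -0.25 to 0.17. The median of these 19, which leave out the 8 members, was 5.4e-05, next to that of all genes. Of the 19, 4 had an unadjusted limma p below 0.05, as 24.8% of all tested genes had. The lowest p belonged to NUDT11, which splits coenzyme A, at -0.22, -0.17, -0.41 and -0.21 on arrays 1 to 4 (limma adjusted p = 0.089). NUDT17 was at -0.22, -0.15, -0.39 and -0.21 (limma adjusted p = 0.0936) and NUDT21 at -0.31, -0.20, 0.013 and -0.39 (limma adjusted p = 0.166). All arrays of the first 2 were below 0, and array 3 was the lowest in both.

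Without array 4, limma called 6 of the 19, with NUDX1, NUDX15, NUDX19 and NUDX23 higher in exposed plants and NUDT11 and NUDT17 lower. NUDX1 cleaves oxidized nucleotides and isopentenyl diphosphate. These calls stand beside 31.1% of all genes called in that fit and were small, from -0.27 for NUDT11 to 0.22 for NUDX15. No mean of the 19 reached those of NUDT7 and NUDT6 above or NUDT20 and NUDT24 below. The means of NUDT10, NUDT8, NUDT2 and NUDT5 lay within the range of the 19. As the members were chosen with these ratios in view, this contrast is read no further.

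**Figure D4:**
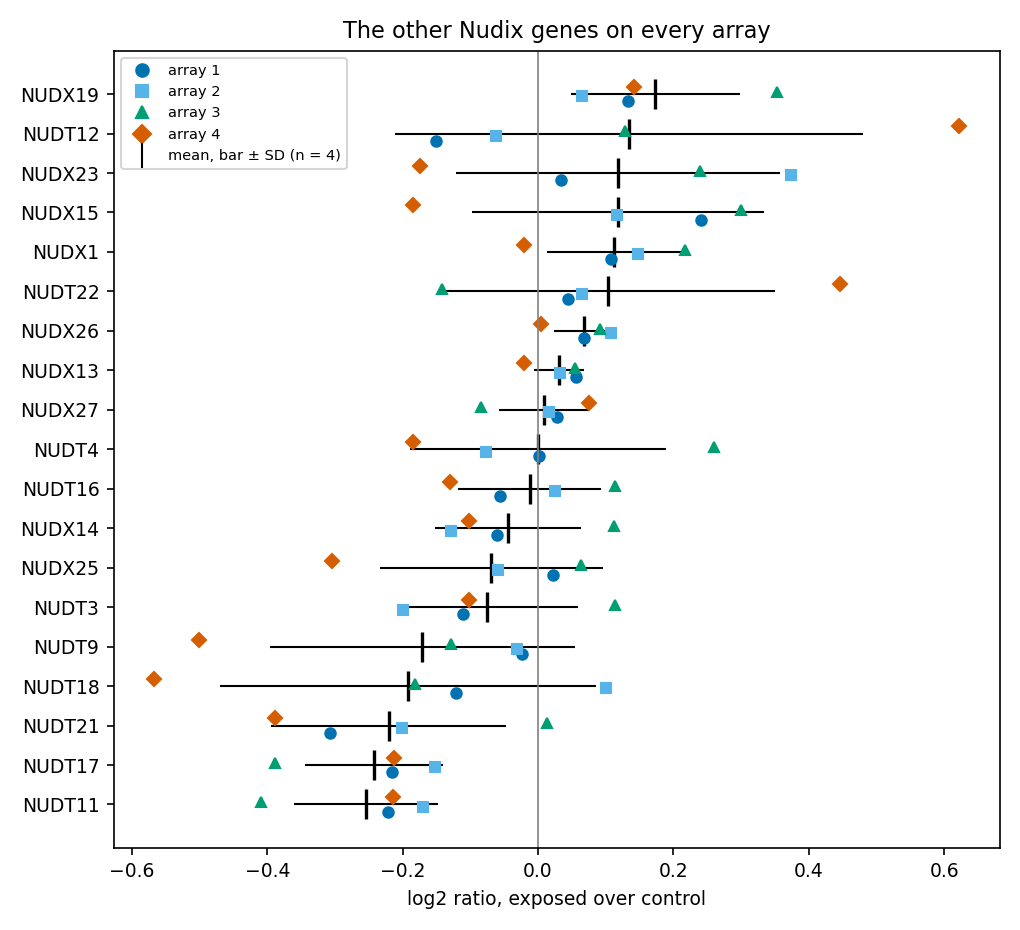
Log2 ratio of exposed over control plants (x axis) for the 19 other Nudix genes, with 1 symbol per array, a tick at the mean and a bar of ± 1 SD (n = 4 arrays). All means lie between -0.25 and 0.17, and array 4 is far from the other arrays in NUDT12, NUDT9 and NUDT18.

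Of 20 genes that make, salvage or use NAD, or that add and remove ADP-ribose, none was called, and 5 had an unadjusted limma p below 0.05, beside 24.8% of all tested genes. The closest were AT1G55090 at -0.23, -0.32, -0.30 and -0.34 (limma adjusted p = 0.053) and the nicotinamidase gene NIC3, of NAD salvage, at 0.30, 0.23, 0.32 and 0.30 (limma adjusted p = 0.0546). Both had the same sign on all 4 arrays, with little spread. PARG2, a poly(ADP-ribose) glycohydrolase that frees ADP-ribose, was at 0.21, 0.27, 0.49 and 0.082 (limma adjusted p = 0.119). The list median was -0.061. Without array 4, limma called 7 of the 20, with NIC3, PARG2 and SRO5 higher and AT1G55090, AT5G22470 (PARP3 among its synonyms), NADK2 and QS lower, where 31.1% of all genes were called.

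Of 7 genes of the EDS1 pathway, against which NUDT7 acts, 2 rose, 1 fell and 4 were not called, where 1.58% of all tested genes rose and 1.82% fell. This list, like the other lists here, was chosen with earlier results of these data known, so its count is read no further. EDS1 and PAD4 encode lipase-like partners in defence signalling. PAD4 rose 1.51-fold, at 0.65, 0.58, 0.62 and 0.54 on arrays 1 to 4 (limma adjusted p = 0.0149). AT3G48080 rose 1.33-fold, at 0.52, 0.37, 0.53 and 0.21 (limma adjusted p = 0.0465). It is a near copy of EDS1, so its probe and that of EDS1 may read both transcripts. FMO1, a flavin monooxygenase of systemic resistance, fell 1.70-fold, at -0.56, -0.60, -0.66 and -1.22 (limma adjusted p = 0.0364).

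SAG101, another EDS1 partner, was at 0.29 (limma adjusted p = 0.0725) and EDS1 itself at 0.22 (limma adjusted p = 0.148), both above 0 on all arrays. EDS16, the isochorismate synthase of salicylic acid synthesis, was at 0.45, 0.25, 0.48 and -0.31 and NPR1, a salicylic acid receptor, at -0.054. The list median was 0.22, and it was 0.35 without array 4, where limma called 5 members higher and 1 lower and 31.1% of all genes. With the mean of its probes PAD4 was at 0.31 (limma adjusted p = 0.0811). With no filter on dim probes FMO1 had an adjusted p of 0.0512 and AT3G48080 of 0.0666 in limma, and AT3G48080 also lost its call with median centring (0.0699) and the scanner log ratio (0.0597). No call of this or the other lists was made without array 1, without array 2 or without array 3, where limma called 0 of all genes.

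Of 6 genes of thiamine synthesis and use, 1 fell and 5 were not called, where 3.40% of all tested genes were called. THIC, which makes the pyrimidine part of thiamine, fell 1.26-fold, at -0.26, -0.40, -0.40 and -0.27 (limma adjusted p = 0.0471). With the mean of its probes it had an adjusted p of 0.0544, with no filter on dim probes of 0.0682 and with median centring a log2 ratio of -0.19 (adjusted p = 0.525), all in limma. THI1, which makes the thiazole part, was at 0.26 (limma adjusted p = 0.147), and 2 of the 6 had an unadjusted limma p below 0.05, as 24.8% of all tested genes had. The list median was -0.051. Without array 4, limma called THIC and also THI1 (0.22, limma adjusted p = 0.0325), where 31.1% of all genes were called.

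Markers of root and leaf were present in both groups. All 5 root markers and all 5 leaf markers were well above background in both channels on all arrays, and none was at background. Among root markers PYK10 (0.61) and the root hair gene PRP3 (0.44) rose and CASP1, SHV2 and EXPA7 were not called, with a list median of 0.44. Without array 4, limma called 4 of these 5, all higher, CASP1 and SHV2 being the added calls, and 31.1% of all genes. Their summed normalized signal was 201328 to 257186 units in exposed plants, against 142711 to 163136 in control plants, most of it from PYK10. Without PYK10 the sums were 9627 to 16636 units in exposed plants, against 7799 to 12034.5 in control plants, and overlapped. Among leaf markers LHB1B1 (0.59), RBCS1A (0.49) and CA1 (0.35) rose, GLDP1 fell (-0.42) and KCS10 was not called. Their summed signals were 554886 to 651719 units in exposed plants, against 424731 to 450219 in control plants. Without RBCS1A, the brightest, the leaf sums were 307140 to 352474 units in exposed plants, against 230167 to 257281 in control plants, and did not overlap. Without array 4, limma called 4 of the 5 leaf markers, 3 higher and 1 lower, and 31.1% of all genes. When all probes of a gene were averaged, LHB1B1 was at -0.025, CA1 at -0.088, RBCS1A at 0.25 and PYK10 at 0.26, none of them called by limma (adjusted p = 0.0621 to 0.859). CA1 was at 0.039 with the scanner log ratio (adjusted p = 0.696), where LHB1B1 (0.0506) and RBCS1A (0.0787) were not called either. With median centring GLDP1 (0.238) and PRP3 (0.115) lost their calls, and with no filter on dim probes CA1 (0.0603) and GLDP1 (0.0559) did, all as limma adjusted p. The part of these markers in the values of the Nudix genes was not tested, and in RNA of whole plants fewer cells of a type and less RNA per cell cannot be told apart.

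**Figure D5:**
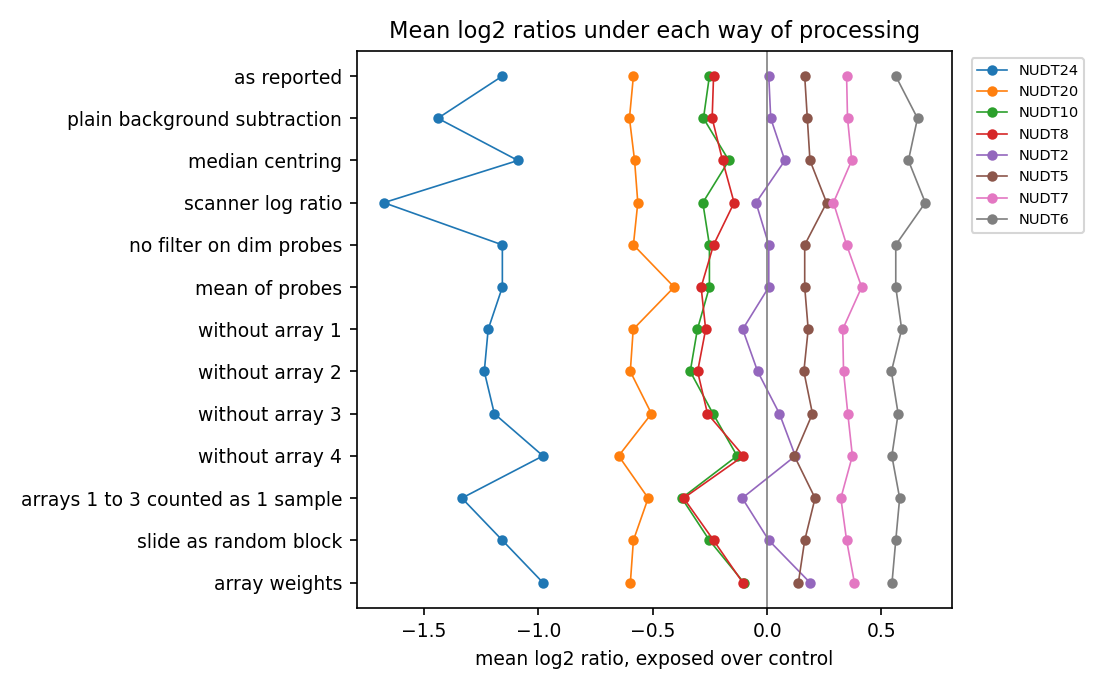
Mean log2 ratio of exposed over control plants (x axis) for the 8 Nudix genes as reported (top row) and under 12 other ways of processing (other rows), with 1 colour per gene. The points of NUDT2 lie on both sides of 0, those of the other 7 genes keep to 1 side, and NUDT24 shows the widest range, from -1.68 to -0.98.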

How the data were processed

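The deposited scanner files hold spot intensity, with background and quality marks, from Agilent Feature Extraction (version 11.5.1.1 per the file headers, 8.5.1.1 per the submitters' processing notes). The scanner's deposited log10 ratio, background- and dye-corrected per the file headers, served as an alternative. The series matrix, deposited as log2 values per the labels, equalled log2 of the processed Cy5 over Cy3 signal for array 1 within 0.001 at 45220 of 45220 spots, but another quantity on arrays 2 to 4, and was not used.

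Median signals were background-corrected (normexp, offset 50) and loess-normalized in limma 3.58.1 (R 4.3.3). Outlier and control spots were left out. Probes had to be well above background on 3 or more of the 4 arrays in 1 channel, with the brightest standing for its gene, which left 22690 genes, 22447 of them in the gene table (TAIR10.1). Ratios were tested against 0 with lmFit and eBayes, two-sided, with Benjamini-Hochberg adjustment. On simulated data with 22690 genes, of which 200 were changed, this fit recovered 42% of changes of 0.5 and 85% of changes of 1 (log2). Recovery with another share of changed genes was not tested. The other lists name their called genes, or their 3 lowest p. The members and lists were chosen with earlier results of these data known. Coordinates are left out because the array design names an older annotation per the file headers.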

Additional observations from a re-analysis of the deposited data

How the results depend on the processing

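Of the 8 Nudix genes, 7 kept the sign of their mean under all 12 alternatives (NUDT8 with the scanner log ratio through array 4 alone), and NUDT2 kept it under 8. No filter on dim probes and the slide as a random block left all member means as they were. The mean of probes did so for the genes with 1 probe. Such unchanged means say nothing on how firm a sign is. NUDT24 was at -1.68 with the scanner log ratio, NUDT6 at 0.66 with plain background subtraction and 0.69 with the scanner log ratio, and NUDT7 at 0.41 with the mean of its probes. Leaving out 1 array at a time gave -1.24 to -0.98 for NUDT24, -0.65 to -0.51 for NUDT20, -0.34 to -0.13 for NUDT10, -0.30 to -0.10 for NUDT8, -0.11 to 0.12 for NUDT2, 0.12 to 0.20 for NUDT5, 0.33 to 0.37 for NUDT7 and 0.54 to 0.59 for NUDT6.

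The counts of calls depended on single arrays. Over all genes 772 were called, against 216 with median centring (166 higher, 50 lower), 292 with no filter on dim probes, 8031 with array weights (35.4%) and 0 to 7054 with 1 array left out. The 7054 came without array 4, and the 0 without array 1, 2 or 3, where 3494 to 3873 genes had an unadjusted p below 0.05. The arrays 1 to 3 counted as 1 sample gave 0 calls, with 1317 genes at an unadjusted p below 0.05. With the slide as a random block 745 were called. The slide block and the array weights were chosen after the data were seen. Of the 8 Nudix genes 0 to 4 were called with 1 array left out, and 0 with arrays 1 to 3 counted as 1 sample. Median centring, the scanner log ratio and no filter on dim probes each called 3 (without NUDT7), beside 0.952%, 4.89% and 1.01% of all genes. Array weights called 6 of the 8 (NUDT2 and NUDT5 added). Of the other Nudix genes 0 to 6 were called with 1 array left out and 6 with array weights. Of the 20 NAD and ADP-ribose genes 1 was called with plain background subtraction, 1 with the scanner log ratio and 2 with the mean of probes. The shares of all genes called in those fits were 5.05%, 4.89% and 3.11%. With array weights 7 of these 20 were called, and 0 to 7 with 1 array left out. Of the EDS1 pathway genes 1 was called with no filter on dim probes, 5 with array weights, 0 with arrays 1 to 3 counted as 1 sample and 0 to 6 with 1 array left out. The cause was not tested. No paired analysis was possible because there is 1 group, in which each array already sets exposed against control RNA.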
